A study of Mus musculus with 29 samples.

Results

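The levels compared here are those of wild-type mouse lung under dexamethasone at 8 h and at 4 h of treatment, measured on 3 arrays at 8 h and 4 arrays at 4 h. These 7 of the 29 single-colour microarrays of the series were taken by the genotype, agent and time in their labels, and no measured value entered that choice. Dexamethasone, a synthetic glucocorticoid, was given at 2.5 mg/kg. Wild-type lung under saline (3 arrays at 8 h, 4 at 4 h) and lung of Klf15 knockout mice under dexamethasone (4 arrays at 8 h, 4 at 4 h) supplied the same step in time without drug and without that gene. All mice were C57BL/6 and 6 to 8 weeks old, and the knockout animals lacked Klf15, a Krüppel-like transcription factor itself induced by glucocorticoids. By its title the series asks how the receptor and Klf15 together set the dynamics of expression. The labels give neither the hour of injection nor the make of the knockout allele. The samples are labelled as biologic replicates, and p-values reflect only the variation from sample to sample.

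The glucocorticoid receptor rests in the cytoplasm in a complex with heat shock protein chaperones, and its cochaperone Fkbp5 lowers its affinity for hormone. Bound by hormone, the receptor moves to the nucleus, where it raises genes next to its response elements and lowers many inflammatory genes that NF-kB and AP-1 drive. In lung, glucocorticoids are known for lowering cytokines and for acting on epithelium and endothelium.

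The tissue label was checked first. Sftpc, Sftpb and Sftpa1 (surfactant of type 2 cells), Scgb1a1 (club cells), Ager (type 1 cells), Pecam1 and Cdh5 (endothelium) were well above background on 7 of 7 dexamethasone arrays. Of 43379 non-control spots, 77.3 to 85.4% passed the scanner's background test at 8 h and 75.5 to 83.8% at 4 h, and 29 arrays set the precision. The Klf15 probe read 0.46, 1.18, 0.86 and 0.62 at 8 h and 1.07, 1.23, 1.37 and 1.27 at 4 h in the knockout under drug, below every wild-type array. Arrays of 1 group correlated across genes with r = 0.980 to 0.992 and arrays of different times with r = 0.977 to 0.990. The 29 arrays lay on 8 slides, of which 1 held wild-type arrays of both times under dexamethasone (replicate 55 at 8 h and replicate 52 at 4 h). A level below is a log2 signal relative to the array's own 75th percentile. A difference is the mean level at 8 h minus that at 4 h, and a gene is called when its adjusted p from limma, fitted to all arrays and adjusted by Benjamini-Hochberg over 15353 genes, is below 0.05. Lung is a mixture of cell types, and in bulk RNA fewer cells of a type and less RNA per cell cannot be told apart.

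Between 4 and 8 h under dexamethasone 901 genes rose (5.87% of those tested) and 1016 fell (6.62%). Most differences were small: 101 of the genes that rose and 159 of those that fell did so by 2-fold or more, and the median size among called genes was 0.53 on the log2 scale. Over all genes tested the median difference was 0.01. For 1719 genes every 8 h array lay above every 4 h array (11.2%) and for 1884 genes below it (12.3%). Among called genes, 842 that rose and 940 that fell had arrays that did not overlap. With both arrays of the shared slide left out, a setting added after seeing the data, 1187 genes were called, and 98.1% of them differed in the same direction between the 2 arrays on that slide, beside 68.7% of all genes tested. Without replicate 55 at 8 h the genes called higher numbered 553.

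**Figure D1:**
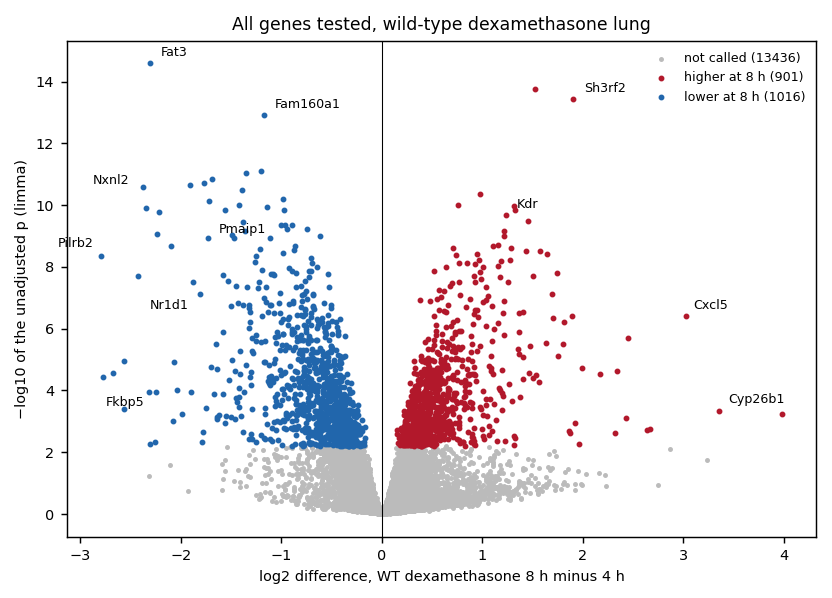
Each point is 1 of the 15353 genes tested, with the log2 difference between 8 h and 4 h under dexamethasone in wild-type lung on the x axis and the negative log10 of the unadjusted limma p on the y axis. Red points (901) were called higher and blue points (1016) lower at 8 h; Fat3 stands highest, and Cyp26b1 lies farthest to the right at 3.98.

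Genes that glucocorticoids are known to induce were more often called lower than higher at 8 h against 4 h. Of 39 tested members of the list, 1 was called higher and 16 lower, with a median difference of -0.37, beside 5.87% and 6.62% over all genes. The counts of the other lists in this comparison stand beside the same shares. Over the alternatives the number called lower ran from 10 to 19. Fkbp5, the receptor's cochaperone, had levels of 0.71, -0.34 and 0.09 at 8 h, against 2.30, 2.55, 2.48 and 2.27 at 4 h. All 4 of the 4 h arrays lay above all 8 h arrays, a difference of -2.25 ± 0.48 (SE, adjusted p = 0.00248), or 4.74-fold lower. Other probes of Fkbp5 fell by less and with smaller errors, -1.58 ± 0.18 and -1.64 ± 0.23 (SE), and were called. Saline levels on the brightest probe of Fkbp5, used here, were -0.13, 0.17 and 0.48 at 8 h and -2.21, -1.26, 0.26 and 0.47 at 4 h. On this probe the drug and saline arrays thus overlapped at 8 h. Dexamethasone minus saline on the same probe was -0.02 (adjusted p = 0.983) at 8 h and 3.08 (adjusted p = 6.63e-06) at 4 h. These differences share the dexamethasone arrays with the course. Drug minus saline on the other probes of Fkbp5 is not given here, so a return to the saline level is shown for 1 probe only.

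Gadd45g, a stress-induced growth-arrest protein, and Cdkn1a, the cell-cycle inhibitor p21, fell but stayed above saline. Gadd45g had levels of 4.28, 3.79 and 4.26 at 8 h, against 5.69, 5.81, 5.72 and 5.47 at 4 h, a difference of -1.56 ± 0.14 (SE, adjusted p = 1.02e-07). Cdkn1a had levels of 2.45, 2.06 and 2.38 at 8 h, against 3.90, 4.08, 3.79 and 3.55 at 4 h, a difference of -1.53 ± 0.19 (SE, adjusted p = 4.77e-06). In both genes the groups did not overlap, and saline lung held means of 3.42 at 8 h and 3.05 at 4 h for Gadd45g and of 0.57 and 0.77 for Cdkn1a. Sesn1, a brake on mTORC1, fell by 1.10 on the log2 scale (adjusted p = 1.92e-05). Ddit4, also a brake on mTORC1, fell by 1.49 (adjusted p = 0.000445). The only member called higher was Bcl6, a transcriptional repressor, at 0.55 (adjusted p = 0.00309), named after its value was seen.

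Fam107a, an actin-associated protein induced by glucocorticoids, was above saline at both times. Its levels were 2.53, 2.03 and 2.15 at 8 h, against 3.15, 3.26, 3.19 and 3.25 at 4 h. Saline arrays held 0.20, 0.36 and 0.47 at 8 h and -0.89, -1.32, -0.74 and -0.86 at 4 h. Every drug array lay above every saline array at the same time, and the gene fell by 0.98 under drug (adjusted p = 9.46e-05) and rose by 1.29 (adjusted p = 6.75e-05) under saline. That rise was not called when only the groups compared were fitted (adjusted p = 0.0884).

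Other standard targets moved less. Tsc22d3, the anti-inflammatory leucine zipper GILZ, had levels of 5.04, 4.66 and 4.80 at 8 h, against 5.04, 5.04, 5.15 and 5.19 at 4 h, which touched at 5.04, and its difference of -0.27 was not called (adjusted p = 0.308); it was called with slide as a fixed block (-0.48, adjusted p = 0.0180). Per1, a clock gene and direct receptor target, differed by -0.46 (adjusted p = 0.125) and was not called. Klf15 had levels of 3.91, 3.40 and 3.76 at 8 h, against 4.18, 4.11, 4.2 and 4.29 at 4 h, a difference of -0.51 (adjusted p = 0.159). Its groups did not overlap, but the call was not made here; it was made under 4 of 21 alternatives, those with slide as a block and those with the mean or the dimmer of its 2 probes, the dimmer one alone giving a difference of -1.02. Dexamethasone minus saline for Klf15 was 0.79 (adjusted p = 0.0186) at 8 h and 1.95 (adjusted p = 9.45e-08) at 4 h. Of the amino acid enzymes linked to Klf15, Aass, which degrades lysine, fell by 0.58 (adjusted p = 0.000353), and Prodh, which degrades proline, was not called at 0.24 (adjusted p = 0.316).

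The receptor gene Nr3c1 was higher at 8 h. Its levels were 2.30, 2.38 and 2.40 at 8 h, against 1.97, 2.05, 1.79 and 1.80 at 4 h, with no overlap, a difference of 0.46 ± 0.09 (SE, adjusted p = 0.00132). Under saline it stood at 2.73, 2.64 and 2.48 at 8 h and 2.70, 2.63, 2.59 and 2.87 at 4 h, above every drug array. Its 3 other probes differed by 0.40, 0.32 and 0.32, of which the first was not called, and the call ended with the dimmest probe (0.40, adjusted p = 0.146) and with median scaling (0.43, adjusted p = 0.0516).

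**Figure D2:**
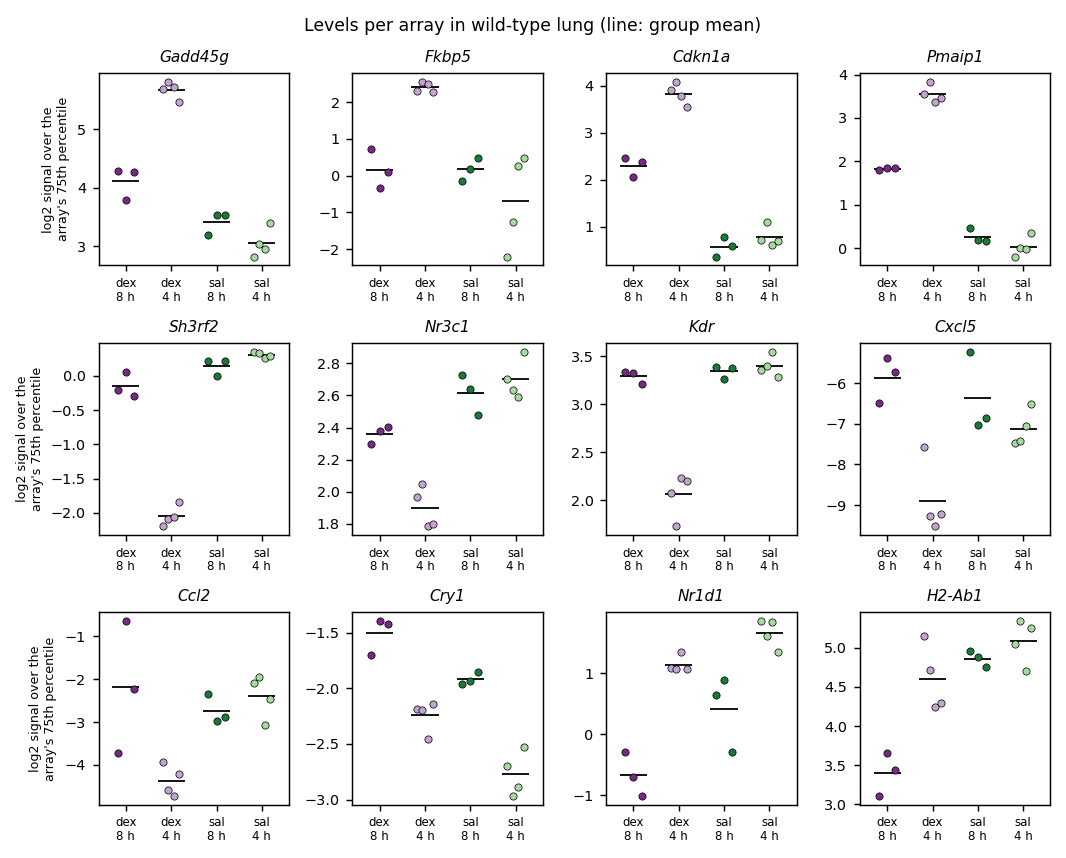
Levels of 12 genes on each wild-type array (points), as log2 signal over the array's 75th percentile, with group means as lines; within a panel the groups run from dexamethasone at 8 h and 4 h to saline at 8 h and 4 h. Under dexamethasone the 8 h arrays lie below the 4 h arrays for Gadd45g, Fkbp5, Cdkn1a, Pmaip1, Nr1d1 and H2-Ab1 and above them for the other 6.

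The metallothionein genes Mt1 and Mt2, whose products bind zinc, are induced both by metals and by glucocorticoids and lie next to each other. Mt2 had levels of 4.57, 4.47 and 4.18 at 8 h, against 5.48, 5.81, 5.57 and 5.39 at 4 h, a difference of -1.16 ± 0.21 (SE, adjusted p = 0.000485) with no overlap, beside means of 2.81 and 2.86 under saline. Mt1 had levels of 4.43, 4.2 and 4.02 at 8 h, against 4.70, 5.29, 4.96 and 4.79 at 4 h, a difference of -0.72 ± 0.18 (SE, adjusted p = 0.00934), also with no overlap. Without replicate 56 at 8 h Mt1 was not called (-0.62, adjusted p = 0.0602), nor when only the groups compared were fitted. The coding sequences are similar, so the probes may share signal.

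Because both genes moved together, their promoter windows are printed from RefSeq (GRCm38.p6, plus strand of the gene, 250 bases before to 50 after the start; Mt1 at chr8:94178839-94179138 and Mt2 at chr8:94172368-94172667, both + strand). Capitals mark the letters TGCACNC, a form of the core of the metal response element, searched on both strands. Other forms of that core were not searched.
Mt1: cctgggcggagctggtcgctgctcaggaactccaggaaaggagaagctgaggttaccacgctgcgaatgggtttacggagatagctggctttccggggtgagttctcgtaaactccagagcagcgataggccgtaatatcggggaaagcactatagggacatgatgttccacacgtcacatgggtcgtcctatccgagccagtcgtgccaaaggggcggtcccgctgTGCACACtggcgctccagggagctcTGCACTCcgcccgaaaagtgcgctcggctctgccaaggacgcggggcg
Mt2: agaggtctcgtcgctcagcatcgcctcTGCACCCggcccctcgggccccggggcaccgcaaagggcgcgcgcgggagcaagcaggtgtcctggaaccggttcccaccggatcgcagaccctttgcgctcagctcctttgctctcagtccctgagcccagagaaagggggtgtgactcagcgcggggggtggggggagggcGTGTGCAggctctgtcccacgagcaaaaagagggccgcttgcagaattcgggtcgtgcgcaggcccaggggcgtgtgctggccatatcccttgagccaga
Each window held 2 separate matches. Of 12251 tested genes with a promoter in the table, 15.2% held a match, as did 17.9% of 693 genes called higher and 16.7% of 810 called lower. The full palindrome of the glucocorticoid response element was found in 1 of the 12251 genes and in none of the called ones. So exact a pattern is too rare in windows of this length to compare the groups. Inexact sites and sites outside the windows were not searched.

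Among the 12 largest rises were a retinoid enzyme, chemokines and developmental factors, several of them near the floor of detection. The largest rises and falls were taken among called genes whose arrays did not overlap, so the lack of overlap in them follows from the choice. Cyp26b1, which degrades retinoic acid, had levels of 2.22, 1.79 and 1.87 at 8 h, against -2.58, -2.03, -0.78 and -2.71 at 4 h, a difference of 3.98 ± 0.98 (SE, adjusted p = 0.00866) or 15.8-fold. Saline arrays ranged widely as well, with 3.55 and 2.28 at 8 h and 0.10, -2.26, 2.04 and 0.03 at 4 h, 1 saline value at 8 h being missing. The call ended with the shared slide left out (adjusted p = 0.0615). Reg3a, an antimicrobial lectin, was not well above background on any 4 h array and was at least 2.64-fold higher at 8 h (adjusted p = 0.00742), a call that ended with slide as a fixed block (adjusted p = 0.0561). On the same terms Sox5 was at least 3.17-fold, Twist1 at least 2.77-fold and Tbx18 at least 1.90-fold higher. These 3 are transcription factors of mesenchymal development. The bounds hold in the main scaling only, and an adjusted p beside a bound tests the fitted difference, not the bound. Over the alternatives the smallest log2 difference was 0.52 for Reg3a, 0.58 for Sox5, 0.39 for Twist1 and 0.20 for Tbx18. Sox5 lost its call in 4 of 20 alternatives, among them those without replicate 56 at 8 h (adjusted p = 0.171) or without replicate 52 at 4 h (adjusted p = 0.0565). Twist1 lost it in 6 of 20, among them those without replicate 55 (adjusted p = 0.101) or 56 (adjusted p = 0.0586) at 8 h or replicate 50 at 4 h (adjusted p = 0.0756). Tbx18 was not called in the deposited table (adjusted p = 0.150) or with normexp and quantile normalization (adjusted p = 0.238).

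Sh3rf2, a RING and SH3 domain protein, had the smallest standard error among these 12 rises. Its levels were -0.21, 0.07 and -0.30 at 8 h, against -2.19, -2.09, -2.06 and -1.84 at 4 h, a difference of 1.90 ± 0.11 (SE, adjusted p = 1.90e-10). Saline arrays held 0.23, -0.01 and 0.21 at 8 h and 0.36, 0.34, 0.27 and 0.29 at 4 h. Hs3st1, which sulfates heparan sulfate, had levels of 0.22, 0.51 and 0.35 at 8 h, against -1.40, -2.26, -1.34 and -1.15 at 4 h, a difference of 1.90 ± 0.27 (SE, adjusted p = 3.42e-05). Calcb, a calcitonin gene-related peptide, rose by 2.44 (adjusted p = 0.000120), and Ivl, involucrin of the cornified envelope, by 2.34 (adjusted p = 0.000820). Both were well above background on all 8 h arrays and on 1 of 4 arrays at 4 h, so the sizes rest on 4 h signals mostly below it; with normexp and quantile normalization they were 0.63 for Calcb and 0.43 for Ivl, both still called. Has1, a hyaluronan synthase, rose by 1.93 (adjusted p = 0.0145); without replicate 55 at 8 h, its highest array at -0.16, it was not called (1.20, adjusted p = 0.164), nor with the shared slide left out or only the groups compared in the fit.

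The 12 largest falls held myeloid receptors and, with the smallest p, a cadherin. Fat3, an atypical cadherin, had levels of -4.93, -5.33 and -4.87 at 8 h, against -2.58, -2.84, -2.73 and -2.80 at 4 h, a difference of -2.31 ± 0.12 (SE, adjusted p = 3.94e-11) or 4.95-fold lower, the lowest p of the comparison. Saline arrays stood at -3.38, -2.78 and -2.90 at 8 h and -2.97, -3.09, -2.94 and -3.20 at 4 h, so the 8 h drug arrays lay below every other wild-type array. Other Fat3 probes differed by -0.54 and -0.35 and were not called. Nxnl2, a thioredoxin-like protein, had levels of -3.97, -3.63 and -3.70 at 8 h, against -1.24, -1.22, -1.52 and -1.58 at 4 h, a difference of -2.37 ± 0.20 (SE, adjusted p = 4.09e-08). Its 8 h arrays lay among the saline arrays, which ranged from -4.15 to -3.42. Ramp3, which modifies calcitonin-family receptors, had levels of 0.37, -0.25 and -0.09 at 8 h, against 2.66, 2.99, 2.14 and 1.97 at 4 h, a difference of -2.43 ± 0.29 (SE, adjusted p = 3.52e-06). Kcnv2, a silent potassium channel subunit, was not well above background on any 8 h array. In the main scaling it was at least 3.22-fold lower. The adjusted p of 3.79e-07 from limma belongs to the fitted difference, not to this bound. Over the alternatives its smallest log2 difference was -0.55.

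Pilrb1, 1 of a pair of activating receptors with closely similar sequences, fell by 2.35 (adjusted p = 9.90e-08) and its partner Pilrb2 fell by 2.79 (adjusted p = 1.26e-06), and a second Pilrb2 probe by 0.43 without a call. Il1r2, the decoy receptor for interleukin-1, had levels of -3.15, -3.28 and -2.66 at 8 h, against -1.40, 0.41, 0.52 and -0.57 at 4 h, a difference of -2.77 ± 0.54 (SE, adjusted p = 0.00112). Clec4e, the receptor Mincle, fell by 2.32 (adjusted p = 0.00259) and Slfn4, a schlafen of myeloid cells, fell by 2.57 (adjusted p = 0.00661). Trim30b, a member of the tripartite motif family, fell by 2.57 (adjusted p = 0.000464), and Serpina3f, a serine protease inhibitor, fell by 2.67 (adjusted p = 0.000906). The call of Serpina3f ended when only the groups compared were fitted, and that of Slfn4 with the shared slide left out.

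Ligands of inflammation moved both ways. Of 38 tested cytokines, chemokines and adhesion molecules, 9 were called higher and 7 lower, with a median of 0.33, beside 5.87% and 6.62% over all genes; over the alternatives the counts ran from 2 to 14 and from 2 to 7. Without replicate 55 at 8 h 3 were called higher, and without replicate 56 at 8 h, 50 at 4 h or 52 at 4 h 5 were. Cxcl5, which attracts neutrophils, had levels of -6.49, -5.39 and -5.72 at 8 h, against -7.56, -9.27, -9.52 and -9.23 at 4 h, a difference of 3.03 ± 0.43 (SE, adjusted p = 3.51e-05). It was well above background on all 8 h arrays and on 1 of 4 arrays at 4 h, so this size rests on 4 h signals mostly below it; it was 0.91 in the deposited table and 0.42 with normexp and quantile normalization, both still called. Ccl2, which attracts monocytes, had levels of -3.71, -0.65 and -2.23 at 8 h, against -3.94, -4.59, -4.72 and -4.22 at 4 h, a difference of 2.17 ± 0.42 (SE, adjusted p = 0.000948). The 8 h arrays of Ccl2 spread from -3.71 to -0.65. Without replicate 55 the difference was 1.40 and still called, and with only the groups compared in the fit it was not called (adjusted p = 0.131). For both chemokines the 4 h drug arrays lay below every saline array, and the 8 h means, -5.87 and -2.20, stood beside saline means of -6.37 and -2.74 at 8 h.

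Among ligands that fell, Cxcl12, which holds CXCR4-bearing leukocytes, had levels of 2.63, 2.0 and 2.02 at 8 h, against 3.41, 3.34, 3.59 and 3.31 at 4 h, a difference of -1.19 ± 0.17 (SE, adjusted p = 3.43e-05). Its 8 h drug arrays were the lowest of all wild-type arrays. Cxcl15, the chemokine of lung epithelium, fell by 0.88 (adjusted p = 0.000239) under drug and, under saline, fell by 0.72 (adjusted p = 0.0201). The saline call of Cxcl15 ended in 5 of 20 alternatives, with a difference of -0.62, adjusted p = 0.173 without replicate 39 at 8 h, -0.72, adjusted p = 0.0537 without replicate 35 at 4 h and -0.72, adjusted p = 0.0637 without replicate 36 at 4 h. Ccl6 fell by 0.91 (adjusted p = 0.000604), but not past the threshold with only the groups compared in the fit (adjusted p = 0.0516). Among 25 brakes on NF-kB and MAPK, 5 were called higher and 4 lower; without replicate 55 or 56 at 8 h, or 49 or 50 at 4 h, 3 were higher, and without replicate 56 2 were lower. Zfp36l1, which destabilises AU-rich transcripts, rose by 0.76 (adjusted p = 5.05e-06), and the MAP kinase phosphatases Dusp10 and Dusp4 by 1.09 (adjusted p = 0.000143) and 0.77 (adjusted p = 0.000234). Dusp2, a phosphatase of lymphoid and myeloid cells, fell by 1.29 (adjusted p = 0.000122).

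Immediate-early genes were more often called higher: 6 of 21 tested rose and 1 fell, with a median of 0.49. Ier3, an early response gene of NF-kB, had levels of 2.97, 3.58 and 3.26 at 8 h, against 2.05, 1.93, 2.25 and 2.49 at 4 h, a difference of 1.09 ± 0.15 (SE, adjusted p = 1.97e-05). Ier5 rose by 0.64 (adjusted p = 0.000370) and Egr2, a zinc finger factor, by 1.37 (adjusted p = 0.00334). Egr2 was high on replicate 55 at 8 h (1.52) and stood at -0.76 and 0.05 on the other 8 h arrays; without replicate 55 its difference was 0.75 (adjusted p = 0.0271), and with only the groups compared in the fit it was not called (adjusted p = 0.190). Maff, a small Maf protein, fell by 0.56 (adjusted p = 6.81e-05). Klf10, a Krüppel-like factor induced early by TGF-beta, rose by 0.72 (adjusted p = 0.00276). The number of early genes called higher was 3 without replicate 55 and 2 when only the groups compared were fitted.

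Markers of cytotoxic cells and neutrophils were called in 1 direction only, lower at 8 h. Of 16 markers of NK and cytotoxic cells none was called higher and 9 were called lower, with a median of -1.03. Their summed level, in units of the array's 75th percentile, was 0.942 to 1.25 at 8 h and 1.52 to 4.32 at 4 h under drug, and 5.26 to 5.77 at 8 h and 5.88 to 7.83 at 4 h under saline. Gzma, granzyme A, had levels of -3.22, -3.07 and -2.92 at 8 h, against 0.12, -1.19, -2.20 and -2.04 at 4 h, a difference of -1.75 ± 0.42 (SE, adjusted p = 0.00624). Replicate 49 was the highest of the 4 h arrays and the groups did not overlap. Prf1, perforin, fell by 1.45 (adjusted p = 0.00361), Klrd1, the receptor subunit CD94, fell by 0.99 (adjusted p = 0.00211) and Nkg7, a granule protein, fell by 1.29 (adjusted p = 0.00678). None of these calls was made when only the groups compared were fitted, and the count of the list ran from 0 to 11 over the alternatives, with 4 without replicate 55 at 8 h.

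Of 18 neutrophil markers, 4 were called lower and none higher, with a median of -1.06; 2 were lower without replicate 54 or 55 at 8 h or 50 or 51 at 4 h, and 7 without replicate 49 at 4 h. Their summed level ran from 14.3 to 50.6 at 8 h and from 16.7 to 86.6 at 4 h under drug, which overlapped, and from 40.9 to 72.8 at 8 h and 30.7 to 204 at 4 h under saline. Csf3r, the receptor of G-CSF, had levels of -2.98, -3.14 and -2.69 at 8 h, against -1.81, -0.50, -0.38 and -1.12 at 4 h, a difference of -1.99 ± 0.50 (SE, adjusted p = 0.00884), and lost its call with the shared slide left out. The part of cell number in the falls of Il1r2, Clec4e and Slfn4 was not tested.

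Of the genes that present antigen on MHC class II, none of 11 tested was called higher and 6 were called lower, with a median of -0.86. H2-Ab1, a beta chain, had levels of 3.11, 3.66 and 3.44 at 8 h, against 5.15, 4.71, 4.24 and 4.29 at 4 h, a difference of -1.20 ± 0.19 (SE, adjusted p = 0.000156). Saline arrays stood from 4.71 to 5.34, so the 8 h drug arrays lay below all others. H2-Aa, an alpha chain, fell by 1.30 (adjusted p = 0.00171), H2-DMa, of the chaperone that loads peptide, fell by 1.10 (adjusted p = 0.00105) and its partner H2-DMb1 fell by 1.11 (adjusted p = 0.00170). None of the class II genes was called when only the groups compared were fitted. Markers of B cells, which also carry class II, were called higher in 1 and lower in 0 of 16, and markers of monocytes, interstitial macrophages and dendritic cells higher in 3 and lower in 2 of 21. Among the last, Cd209a, a dendritic cell lectin, rose by 1.29 (adjusted p = 0.00414), but not with only the groups compared in the fit.

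Interferon-stimulated genes split. Of 31 tested, 3 were called higher and 6 lower, with a median of -0.41. Without replicate 55 or 56 at 8 h, or 50 or 52 at 4 h, 1 was called higher, and without replicate 52 10 were lower. Ifit3, which binds viral RNA complexes, had levels of 1.85, 1.67 and 1.57 at 8 h, against 1.19, 0.77, 0.49 and 0.63 at 4 h, a difference of 0.92 ± 0.11 (SE, adjusted p = 4.94e-06). Bst2, tetherin, had levels of 2.60, 2.80 and 2.67 at 8 h, against 4.05, 3.78, 3.49 and 3.31 at 4 h, a difference of -0.97 ± 0.16 (SE, adjusted p = 0.000247). The first lay higher on every 8 h array and the second lower. Oas1a, a synthetase of the RNase L pathway, fell by 0.73 (adjusted p = 0.00269) and its partner Oas2 fell by 1.46 (adjusted p = 0.000817), without a call when only the groups compared were fitted; a second Oas2 probe differed by -0.55 without a call.

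Clock genes were called in the courses with and without drug. Between 4 and 8 h the time of day also moves, and for these genes it cannot be told apart from the hours of treatment within a course. Nr1d1, the repressor REV-ERBalpha, had levels of -0.30, -0.70 and -1.01 at 8 h, against 1.08, 1.07, 1.34 and 1.08 at 4 h, a difference of -1.81 ± 0.23 (SE, adjusted p = 1.03e-05). Under saline it fell by 1.25 (adjusted p = 0.00683), but not past the threshold without replicate 39 of saline at 8 h (-0.89, adjusted p = 0.0899). Cry1, a repressor of the loop, had levels of -1.70, -1.39 and -1.42 at 8 h, against -2.19, -2.19, -2.45 and -2.14 at 4 h, and rose by 0.74 (adjusted p = 0.000238). Under saline Cry1 had -1.96, -1.93 and -1.85 at 8 h and -2.70, -2.97, -2.88 and -2.53 at 4 h, and rose by 0.86 (adjusted p = 0.000548), without a call when only the groups compared were fitted (adjusted p = 0.0966). The times did not overlap under either agent. Dbp, an output factor, had levels of 3.74, 3.58 and 3.33 at 8 h, against 4.70, 4.87, 4.82 and 4.73 at 4 h and fell by 1.23 (adjusted p = 6.77e-06), against a saline difference of -0.47 (adjusted p = 0.159).

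Of 15 genes of the core loop, 3 were called higher and 1 lower under drug, and 5 higher and 2 lower under saline, beside 1.04% and 0.417% of all genes under saline. The weakest was Per2 at 0.40 (adjusted p = 0.0477), which lost its call in 15 of 21 alternatives and was not called without any 1 of 6 of the 7 arrays (0.35 to 0.44). With the dimmest of its 3 probes Nr1d1 differed by 0.08 in place of -1.81. The dimmest Cry1 probe differed by 1.67 without a call. The promoter window of Cry1 (RefSeq GRCm38.p6, chr10:85185005-85185304, - strand, 5′ to 3′) is shown because it holds the E-box CACGTG, the palindrome that CLOCK and BMAL1 bind, in capitals.
Cry1: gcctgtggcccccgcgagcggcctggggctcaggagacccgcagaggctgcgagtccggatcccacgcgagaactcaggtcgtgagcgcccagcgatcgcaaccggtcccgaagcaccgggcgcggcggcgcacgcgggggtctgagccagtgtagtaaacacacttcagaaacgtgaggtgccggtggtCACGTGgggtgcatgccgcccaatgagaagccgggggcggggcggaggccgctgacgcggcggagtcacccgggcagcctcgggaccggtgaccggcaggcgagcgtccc
The same letters occurred in 10.5% of the 12251 genes, in 10.4% of genes called higher and in 11.1% of those called lower.

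Of 23 p53 targets and apoptosis regulators, 8 were called lower and none higher, with 6 to 8 lower over the alternatives. Pmaip1, the BH3-only protein NOXA, had levels of 1.80, 1.84 and 1.85 at 8 h, against 3.56, 3.83, 3.38 and 3.45 at 4 h. Saline arrays held 0.46, 0.18 and 0.15 at 8 h and -0.20, 0.01, -0.03 and 0.36 at 4 h. Its difference was -1.73 ± 0.18 (SE, adjusted p = 4.57e-07), and at both times every drug array lay above every saline array. Fas, the death receptor, fell by 0.70 (adjusted p = 3.51e-05). Sesn2, a sestrin, fell by 0.84 (adjusted p = 0.000143). Cdkn1a and Sesn1 are counted in this list as well as among the glucocorticoid-induced genes.

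Of the chaperones of the endoplasmic reticulum, 5 of 15 were called lower and none higher. Creld2 had levels of 3.46, 3.45 and 3.54 at 8 h, against 4.48, 4.40, 4.30 and 4.19 at 4 h, a difference of -0.86 ± 0.09 (SE, adjusted p = 7.46e-07), with no overlap. Sdf2l1 fell by 0.80 (adjusted p = 0.000464), but not past the threshold with only the groups compared in the fit (adjusted p = 0.0655). Calr, calreticulin, fell by 0.65 (adjusted p = 0.00167) and Pdia4, a disulfide isomerase, fell by 0.55 (adjusted p = 0.000851). Of the cytosolic heat shock genes, 2 of 15 were called higher and 1 lower, too few to set the list apart from the 5.87% and 6.62% over all genes. Hspa1a, an inducible HSP70, had levels of 0.97, 1.66 and 1.32 at 8 h, against 0.29, 0.21, 0.23 and 0.39 at 4 h, a difference of 1.04 ± 0.14 (SE, adjusted p = 1.49e-05). Hspb8, a small heat shock protein, fell by 0.67 (adjusted p = 2.37e-05).

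In amino acid metabolism outside the branched-chain pathway, 2 of 35 genes were called higher and 7 lower. Psat1, of serine synthesis, fell by 0.62 (adjusted p = 4.61e-05) and Cth, which makes cysteine, fell by 0.57 (adjusted p = 0.00165), while Arg1, arginase, rose by 0.88 (adjusted p = 0.00449), though not past the threshold with only the groups compared in the fit (adjusted p = 0.0545). Slc7a10, a transporter of small neutral amino acids, had levels of -1.14, -0.86 and -0.74 at 8 h, against 0.20, 0.35, 0.22 and -0.12 at 4 h, a difference of -1.08 ± 0.15 (SE, adjusted p = 2.84e-05), and the 8 h arrays were the lowest in wild type. Chac1, which degrades glutathione and is an ATF4 target, rose by 0.92 (adjusted p = 3.50e-06). Of 21 tested ATF4 targets 3 were called higher and 4 lower, with a median of 0.008. Psat1, Sesn2 and Ddit4, of the same list, fell. Of 24 genes of branched-chain amino acid breakdown 2 were called higher and 1 lower, near the shares over all genes; Acadsb, a short branched-chain acyl-CoA dehydrogenase, fell by 0.54 (adjusted p = 0.000360).

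Genes of fuel use were called in small numbers. Ucp2, a mitochondrial carrier, had levels of 3.48, 3.13 and 3.05 at 8 h, against 3.92, 4.06, 4.16 and 3.87 at 4 h, a difference of -0.79 ± 0.14 (SE, adjusted p = 0.000411). Plin2, which coats lipid droplets, rose by 0.56 (adjusted p = 0.000738). Fasn, fatty acid synthase, fell by 0.46 (adjusted p = 0.00137), without a call under quantile normalization or when only the groups compared were fitted, and Fdft1, squalene synthase, fell by 0.90 (adjusted p = 9.55e-05), with a second probe at -0.08. The regulator of glycolysis Pfkfb3 fell by 0.48 (adjusted p = 0.000492) and its partner Pfkfb4 fell by 0.76 (adjusted p = 4.77e-06), and Bnip3, a mitophagy receptor, fell by 0.53 (adjusted p = 6.11e-05). Fmo1, a flavin monooxygenase of lung, had levels of 4.30, 4.58 and 4.54 at 8 h, against 3.28, 2.98, 3.30 and 3.51 at 4 h, a difference of 1.21 ± 0.12 (SE, adjusted p = 4.21e-07). All 8 h arrays of Fmo1 lay above all other wild-type arrays.

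Of the matrix genes, none of 32 was called higher and 11 were called lower, with a median of -0.39 and 4 to 15 lower over the alternatives, among them 7 without replicate 54 at 8 h. Col1a2, a chain of type I collagen, fell by 0.71 (adjusted p = 0.00294), Col5a1 fell by 0.70 (adjusted p = 5.78e-05) and Col6a2 fell by 0.72 (adjusted p = 0.00205). Loxl1, which crosslinks elastin, had levels of 0.08, 0.83 and 0.55 at 8 h, against 1.36, 2.15, 1.47 and 1.48 at 4 h, a difference of -1.12 ± 0.21 (SE, adjusted p = 0.000576) with no overlap. Another Col5a1 probe differed by -0.10 without a call, and Loxl1 and Col1a2 were not called when only the groups compared were fitted. Of 14 markers of fibroblasts and mesothelium 1 was called higher and 1 lower; Pdgfra, a growth factor receptor of fibroblasts, rose by 0.72 (adjusted p = 8.77e-05), and its second probe by 0.21 without a call. Of 13 smooth muscle and pericyte genes, 2 were called higher and 2 lower. Those that fell were Smtn, smoothelin, by 0.66 (adjusted p = 0.000268) and Cspg4, NG2, by 0.57 (adjusted p = 0.000736). Notch3 and Pdgfrb were those that rose. Over the alternatives the counts of this list ran from 0 to 3 higher and from 2 to 5 lower.

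Endothelial genes moved both ways, 4 of 19 higher and 4 lower, with 2 higher without replicate 55 at 8 h. Kdr, the main VEGF receptor, had levels of 3.34, 3.33 and 3.21 at 8 h, against 2.07, 1.73, 2.23 and 2.20 at 4 h, a difference of 1.23 ± 0.11 (SE, adjusted p = 1.32e-07). At 8 h it stood beside saline, which held 3.38, 3.26 and 3.38 at 8 h and 3.36, 3.40, 3.55 and 3.29 at 4 h, and the 4 h drug arrays were the lowest. Sox18, an endothelial factor, rose by 0.76 (adjusted p = 0.000210). Lyve1, a hyaluronan receptor of lymphatic vessels and macrophages, fell by 0.86 (adjusted p = 0.000209) and Emcn, endomucin, fell by 0.58 (adjusted p = 6.53e-05). Of epithelial transport genes, 2 of 22 were called higher and 1 lower, near the shares over all genes. Cftr, the chloride channel of cystic fibrosis, rose by 1.04 (adjusted p = 5.93e-05) and Slc12a2, the Na-K-Cl cotransporter, by 0.54 (adjusted p = 0.000101). Acute-phase genes were called lower in 4 of 20 and higher in none. Among them Lrg1 fell by 1.29 (adjusted p = 0.000253) and Lbp, which binds lipopolysaccharide, fell by 0.84 (adjusted p = 0.000415). Fabp1, a fatty acid binding protein listed among alveolar macrophage markers, fell by 1.32 (adjusted p = 6.65e-05).

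**Figure D3:**
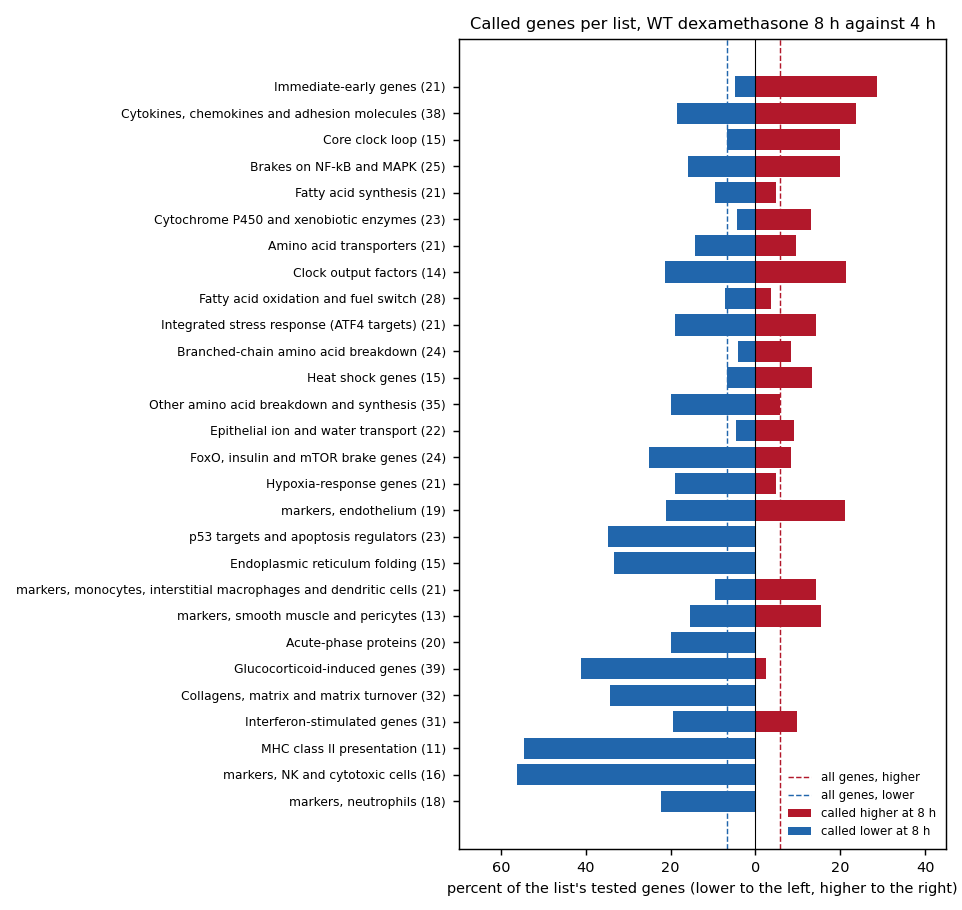
For each gene list with 3 or more called genes, the bars give the percent of its tested members (their number in parentheses) that were called lower (blue, to the left) and higher (red, to the right) at 8 h against 4 h under dexamethasone. Dashed lines mark the shares over all genes, 5.87% higher and 6.62% lower; lists run by their median difference, from -1.06 for neutrophil markers at the bottom to 0.49 for immediate-early genes at the top.

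The same step in time under saline, which shares no array with the drug course, called fewer genes: 159 higher (1.04%) and 64 lower (0.417%). The courses did share slides, and the main fit held no slide term. Saline replicate 39 lay with drug replicate 56 (8 h), and saline 36 and 35 with drug 50 and 51 (4 h). Saline replicate 37 at 8 h lay with drug replicate 49 at 4 h. With array weights the counts came close: 1174 higher and 1356 lower under drug, and 1169 higher and 1176 lower under saline. Of the genes that rose under drug, 27 also rose under saline (3.0% of the drug list and 17.0% of the saline list), and 14 of those that fell also fell (1.38% and 21.9%). Another 9 and 35 genes were called in opposite directions. Of the genes called under drug, 57.2% had the same sign under saline, beside 62.9% of all genes tested. With only the groups compared in the fit no saline gene was called by limma, against 1661 higher and 845 lower at an unadjusted p under 0.05. The saline counts also moved with single arrays. Without replicate 39 at 8 h they were 35 and 12, without replicate 37 at 8 h 76 and 33, without replicate 33 at 4 h 72 and 39, without replicate 36 at 4 h 102 and 38, without replicate 35 at 4 h 109 and 40, and without replicate 38 at 8 h 170 and 136. Of all saline calls 71.3% were higher; this share was 28.0% with median scaling, 56% with quantile normalization and 61.2% with normexp. Median scaling also moved the median of all genes under saline to -0.13.

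**Figure D4:**
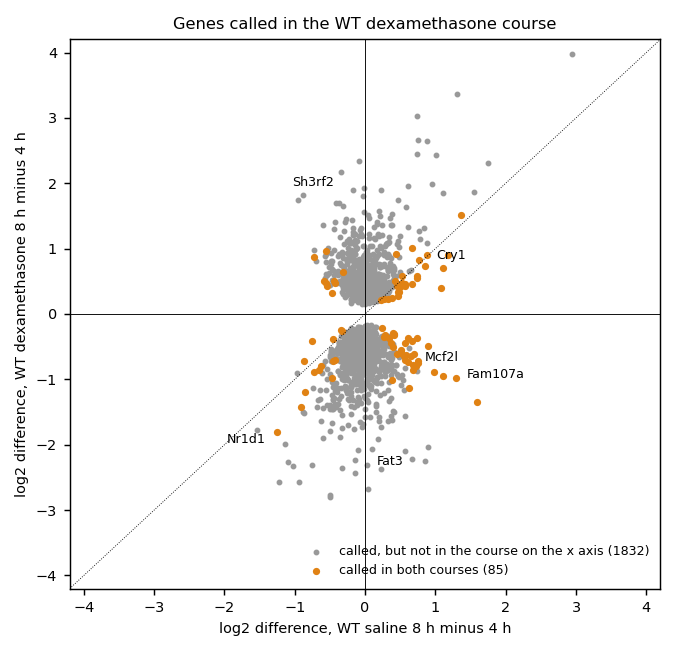
Each point is 1 of the genes called in the wild-type dexamethasone course, with its log2 difference between 8 h and 4 h under dexamethasone on the y axis and under saline on the x axis; the dotted line marks equality. The 85 genes called in both courses are orange, among them Cry1 and Nr1d1 with the same sign in both and Fam107a and Mcf2l on opposite sides of 0; the other 1832 are grey.

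The difference of the courses, drug minus saline, was called higher for 431 genes (2.81%) and lower for 516 (3.36%). Of these calls 45.5% were higher, and 63.6% with median scaling. Among glucocorticoid-induced genes 1 was called higher and 20 lower; 8 of the list rose and 1 fell under saline, with a median of 0.34. For Tsc22d3 the difference of the courses was -1.09 (adjusted p = 0.00342), with saline levels of 4.29, 4.34 and 4.47 at 8 h and 3.11, 3.54, 3.70 and 3.85 at 4 h. For Klf15 it was -1.16 (adjusted p = 0.0300). The Klf15 call was lost in 9 of 27 alternatives, among them those without replicate 55 (-1.01, adjusted p = 0.11) or 56 (-1.19, adjusted p = 0.0502) of drug at 8 h, 52 of drug at 4 h (-1.12, adjusted p = 0.0507), 37 (-1.11, adjusted p = 0.0652) or 39 (-1.09, adjusted p = 0.0800) of saline at 8 h and 33 (-1.07, adjusted p = 0.0654) or 34 (-1.06, adjusted p = 0.0564) of saline at 4 h.

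The 8 genes with the lowest p in this difference were Fat3, Sh3rf2, Fam160a1, Fam107a, Mcf2l, Slc25a33, Fam117b and Zbtb8b. Fam160a1, a partner of hook proteins in vesicle transport, had levels of -0.69, -0.61 and -0.62 at 8 h, against 0.60, 0.55, 0.55 and 0.43 at 4 h, beside saline means of -0.62 at 8 h and -0.78 at 4 h. The 4 h drug arrays lay above all other wild-type arrays. Slc25a33, a mitochondrial pyrimidine carrier, had levels of 2.20, 2.16 and 2.12 at 8 h, against 2.98, 2.92, 3.14 and 3.01 at 4 h, and fell by 0.85 (adjusted p = 6.51e-06), and rose under saline by 0.68 (adjusted p = 0.000925). That rise was not called with median scaling (0.55, adjusted p = 0.100) or with only the groups compared in the fit (adjusted p = 0.221). Mcf2l, a guanine nucleotide exchange factor, fell by 0.62 (adjusted p = 4.98e-05) and rose under saline by 0.70 (adjusted p = 0.000140). With only the groups compared in the fit the Mcf2l rise under saline was not called (adjusted p = 0.0884). Fam117b fell by 1.0 (adjusted p = 2.36e-07) and rose under saline by 0.38 (adjusted p = 0.0456). That saline call ended in 9 of 20 alternatives, among them those without replicate 37 (0.34, adjusted p = 0.183) or 39 (0.39, adjusted p = 0.195) at 8 h and without replicate 33 (0.38, adjusted p = 0.0955), 34 (0.35, adjusted p = 0.0949) or 35 (0.37, adjusted p = 0.0870) at 4 h. Zbtb8b, a zinc finger protein, fell by 2.22 (adjusted p = 1.09e-07), with a saline difference of 0.67 that was not called (adjusted p = 0.102).

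Klf15 knockout lung under dexamethasone, which shares no array with the wild-type course, called 538 genes higher (3.5%) and 565 lower (3.68%) at 8 h against 4 h. Where a slide held dexamethasone arrays of both genotypes, those of the knockout and of wild type were of opposite times. Of the 1917 genes called in wild type, 93.5% had the same sign in the knockout, beside 59.3% of all genes tested. Shared calls numbered 320 higher (59.5% of the knockout list and 35.5% of the wild-type list) and 361 lower (63.9% and 35.5%), and 1 gene was called in opposite directions. Among the genes that rose in wild type the median difference was 0.25 in the knockout and 0.47 in wild type, and among those that fell -0.28 and -0.57; the wild-type values chose these genes, so the 2 medians are not compared by a test. The test of the difference between genotypes called 1 gene (0.00651%), with 1589 at an unadjusted p under 0.05.

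That gene was Bckdhb, the E1 beta subunit that commits branched-chain amino acids to breakdown. Its levels at 8 h and 4 h were 0.12, 0.16, 0.06 and 0.08 and 0.51, 0.29, 0.42 and 0.32 in the knockout, against 1.45, 1.26 and 1.30 and 1.03, 1.02, 1.11 and 1.06 in wild type. In the knockout it fell by 0.28 (adjusted p = 0.00111) and in wild type it rose by 0.28 (adjusted p = 0.00151). The fall was not called in 3 of 21 alternatives and the rise in 4 of 21, both among them with median scaling, with only the groups compared in the fit and with the dimmest probe (-0.18 in the knockout and 0.06 in wild type). The difference of the courses was -0.56 ± 0.08 (SE, adjusted p = 0.00328); it was lost in 5 of 28 alternatives, with median scaling (-0.49, adjusted p = 0.295), with slide as a fixed block (adjusted p = 0.0619), when only the groups compared were fitted (adjusted p = 0.161) and with the mean (-0.40) or the dimmest (-0.25) of its probes. The next genes by p were not called. Ppp1r21 fell by 0.95 in wild type (adjusted p = 2.95e-07), with -0.25 in the knockout (adjusted p = 0.0772). Angpt2, a destabilising ligand of the endothelial receptor Tie2, rose by 0.92 (adjusted p = 1.92e-06) in wild type, with 0.11 in the knockout (adjusted p = 0.573). Gap43, a growth-cone protein, fell by 1.15 in the knockout (adjusted p = 3.08e-05), with 0.10 in wild type (adjusted p = 0.772). The adjusted p of the difference was 0.0572 for each of the 3. It passed the threshold in 12 of 28 alternatives for Angpt2, 8 for Gap43 and 6 for Ppp1r21.

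Among the glucocorticoid-induced genes 4 of 39 were called lower in the knockout, with a median of -0.14. Gadd45g differed by -0.58 (adjusted p = 0.00669) in the knockout and -1.56 (adjusted p = 1.02e-07) in wild type. Cdkn1a differed by -0.44 (adjusted p = 0.133) and -1.53 (adjusted p = 4.77e-06) in the same order. The differences between genotypes, 0.98 (adjusted p = 0.0836) and 1.09 (adjusted p = 0.167), were not called. Fat3 at -2.15 in the knockout stood beside -2.31 in wild type, and it was called in the knockout.

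**Figure D5:**
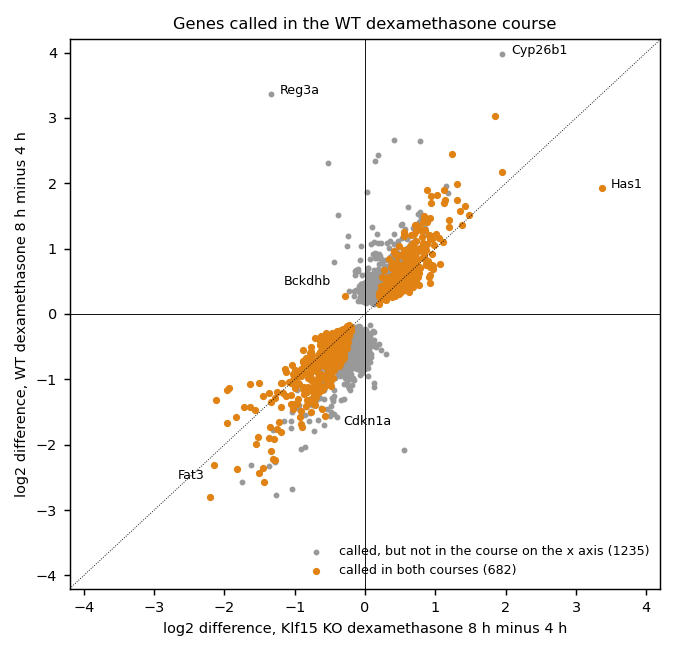
The genes called in the wild-type dexamethasone course, with the log2 difference between 8 h and 4 h in wild type on the y axis and in the Klf15 knockout on the x axis; the dotted line marks equality. The 682 genes called in both genotypes are orange, 1 of them (Bckdhb) in opposite directions, and the other 1235 are grey.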

How the data were processed

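RNA of mouse lung was hybridised to single-colour Agilent 4x44K arrays. Per the file headers, the spot intensities were background-subtracted and spatially detrended within each array by Agilent Feature Extraction 10.7.3.1 (10.6 in the submitters' processing notes). The deposited series table holds log2 values of the same arrays by an unstated normalization; its values followed the median signal with a rank correlation of at least 0.99998. From the intensities, log2 of the processed signal minus each array's 75th percentile was computed, spots of a probe were averaged, and outlier spots and controls were left out. A probe had to be well above background on 3 or more arrays of at least 1 group (33938 probes), and each gene was read from its brightest kept probe. For 16338 of 41174 probes the accession matched no gene in the RefSeq gene table. Probes were named by matching the accession in the scanner files to RefSeq transcript or Ensembl identifiers. Symbols and promoters come from RefSeq (GRCm38.p6). limma 3.58.1 in R 4.3.3 fitted 8 group means to 29 arrays, with Benjamini-Hochberg adjustment over 15353 genes. On simulated data 85 of 100 genes changed 2-fold and 57 of 100 changed 1.5-fold were recovered, with 8 false calls. The simulated noise was independent between arrays and held no slide effect, so it does not measure false calls that slides could bring. In the data, the correlation within slides was 0.41. An "at least" fold, in the main scaling only, sets the bright group against the higher of the dim probe and the lowest signal well above background on each array. Named genes were the 12 largest rises and falls among called genes with arrays that did not overlap, up to 4 called members of each of 50 lists, Klf15, Nr3c1, Fkbp5, Tsc22d3, Per1, Mt2, Aass and Prodh, the 8 genes with the lowest p in the difference between drug and saline courses and the 4 in that between genotypes. Members and lists were chosen with earlier results of these data known. Alternatives changed scaling, background correction, filter, probe choice, slide, variance model, arrays in the fit and values. Knockout saline arrays entered the fit only. Some results are not reported here.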

Additional observations from a re-analysis of the deposited data

Results flagged for a closer look

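For 4 of 115 genes examined, 1 of the 4 arrays at 4 h under dexamethasone stood far from the rest by Dixon's test, which picks out about 1 group in 20 by chance. On replicate 49 Cxcl5 was at -7.56 and Oas2 at -0.22, on replicate 51 Nr1d1 was at 1.34, and on replicate 50 Loxl1 was at 2.15, each the highest of its group. Groups of 3 arrays cannot be tested this way.

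Most of the genes examined were chosen from the dexamethasone course, whose arrays the test of the difference shares, and 8 by that test itself. A high share among them therefore follows in part from the choice. Over all genes 2.81% were called higher and 3.36% lower in that test. The 8 h minus 4 h difference under dexamethasone differed from that under saline, by limma's test of the difference, for 70 of the 115 genes examined. For Ivl and Cxcl5 the sizes rest on signals near background. It was higher under the drug, in log2 units, for Ccl2 2.52, Ivl 2.43, Cxcl5 2.29, Sh3rf2 2.07, Cd209a 1.73, Hs3st1 1.66, Ier3 1.32, Dusp10 1.29, Kdr 1.29, Angpt2 1.07, Cftr 1.06, Ier5 1.03, Fmo1 1.03, Hspa1a 0.97, Chac1 0.81, Zfp36l1 0.75, Sox18 0.74, Plin2 0.68, Pdgfra 0.65, Dusp4 0.63, Nr3c1 0.54 and Slc12a2 0.46. It was lower under the drug by 2 or more for Fkbp5 -3.10, Zbtb8b -2.89, Serpina3f -2.71, Nxnl2 -2.60, Fat3 -2.34, Pilrb2 -2.29, Ramp3 -2.28, Fam107a -2.27 and Pilrb1 -2.02. The Fkbp5 value is from its brightest probe, which had the largest SE of its 3 probes in the dexamethasone course. Kcnv2, not well above background on any 8 h drug array, had a fitted value of -2.10, which is not a measured size. It was lower by 1 to 2 for Pmaip1 -1.96, Gadd45g -1.93, Ddit4 -1.65, Slc25a33 -1.54, Fam117b -1.39, Fam160a1 -1.33, Cdkn1a -1.33, Mcf2l -1.32, Lyve1 -1.24, Dusp2 -1.20, Ppp1r21 -1.17, Klf15 -1.16, Fabp1 -1.15, Sesn2 -1.13, Mt2 -1.10, Tsc22d3 -1.09, Fas -1.06, Ucp2 -1.04 and Sesn1 -1.03. It was lower by less than 1 for H2-Ab1 -0.97, Slc7a10 -0.94, Lbp -0.93, Per1 -0.92, Ccl6 -0.89, Cxcl12 -0.80, Pfkfb4 -0.80, Dbp -0.77, Fdft1 -0.70, Hspb8 -0.69, Maff -0.69, Per2 -0.68, Pdia4 -0.67, Aass -0.66, Psat1 -0.65, Creld2 -0.63, Pfkfb3 -0.55, Smtn -0.55 and Bnip3 -0.50. Of these, Per2 lost the call in 14 of 27 alternatives, Per1 in 13 and Klf15 in 9; Per2 ran from -0.79 to -0.27 and Per1 from -1.07 to -0.77. For Fat3 the call ended with the mean (-1.08) and the dimmest (-0.21) of its probes. Between genotypes the difference, knockout minus wild type, was called for Bckdhb at -0.56.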

How the results depend on the processing

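Of 110 named genes called in the dexamethasone course, 71 kept the call in every alternative, 38 lost it in 1 or more and Nr1d1 alone turned (0.078 with the dimmest of its probes). No paired analysis was possible because the groups share no replicate numbers. For the wild-type drug course 901 genes were called higher and 1016 lower; these became 436 and 657 with median scaling and 339 and 450 when only the groups compared were fitted, and 505 were higher with the shared slide left out. Without 1 array the counts ran from 553 to 863 higher and from 697 to 1047 lower. For saline (159 and 64), array weights gave 1169 and 1176, a random slide block 333 and 173, and a fit of only the groups compared 0 and 0 (limma; 1661 and 845 at an unadjusted p under 0.05). The genes higher under saline numbered 86 in the deposited table, 28 with median scaling, 85 with normexp and 93 with quantile normalization. Without 1 array they ran from 35 to 170, and those lower from 12 to 136.

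For drug minus saline (431 and 516), array weights gave 835 and 862, a fixed slide block 698 and 827 and a random one 803 and 911. The dimmest probe gave 286 higher, a fit of only the groups compared 264 higher and median scaling 200 lower. Without 1 array the counts ran from 258 to 524 and from 361 to 593; without replicate 55 of drug at 8 h 258 were higher, and without replicate 39 of saline at 8 h 279. For the knockout (538 and 565), array weights gave 967 and 1034, a fit of only the groups compared 133 and 182, median scaling 258 lower and a random slide block 861 lower. Without 1 array the counts ran from 357 (knockout replicate 59 at 4 h) to 640 and from 407 to 620.

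Between genotypes 0 genes were called higher by limma (837 at an unadjusted p under 0.05) and 1 lower. The probes well above background on all arrays gave 1 and 3, a random slide block 5 and 5, and the trended robust variance 3 and 4. The deposited table, normexp, quantile normalization and a fixed slide block each gave 3 lower. None was lower (0 by limma) with the dimmest probe, the mean of probes, median scaling or only the groups compared, where 1450, 1512, 1023 and 1329 genes had an unadjusted p under 0.05. Without 1 array the counts ran from 0 to 4 higher and from 1 to 4 lower. The cause of these shifts was not tested. Signal near background limits Reg3a, Sox5, Twist1, Tbx18, Kcnv2, Calcb, Ivl and Cxcl5.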

Other observations

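For 7 lists limma called no member between 8 and 4 h under dexamethasone. Of the mitochondrial respiratory chain 0 of 25 genes were called, with 3 at an unadjusted p under 0.05. Of erythroid markers 0 of 7 were called (2 at an unadjusted p under 0.05), of adipocyte markers 0 of 12 (2) and of markers of mast cells, basophils and platelets 0 of 12 (1). Markers of club and ciliated cells (0 of 15), of heart muscle (0 of 15) and of thymus, thyroid, esophagus and liver (0 of 10) had 0 at that level too. Markers of type 2 cells held 1 called higher and 1 lower of 12, and cell division genes 1 and 1 of 31.

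Replicate 34 of saline at 4 h stood apart in myeloid genes. Csf3r had -0.95, 2.02, -0.60 and -0.32 on the 4 saline arrays at 4 h, the second value being that of replicate 34. Il1r2 had -3.89, -0.84, -3.88 and -2.96 on the same arrays. These arrays enter no difference within the dexamethasone course, but they enter the spread that the fit of all arrays uses there. The dexamethasone course was not refitted with replicate 34 alone left out. The part of this library in the saline results was measured by leaving it out, with 138 genes called higher and 46 lower.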
